A study of Mus musculus with 66 samples.

Results

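The genes described here are 9 genes listed for, but not all confined to, neurons releasing GABA or glycine: Gad1, Gad2, Slc32a1, Slc6a5, Pax2, Lbx1, Gbx1, Lhx1 and Pvalb. They form a list of inhibitory neuron genes given by symbol, and are 9 of the 45706 gene identifiers in the deposited tables. The series holds 66 RNA-seq libraries from mice of 5 lines with spontaneous mutations of Rorb and from C57BL/6J and DBA/1J control mice. Spinal cord (24 libraries) comes first, since the high-stepping gait of these mice has been ascribed to inhibitory interneurons of the cord. Brain, sampled as hemisections, is represented by 24 libraries, and cortex, hippocampus and cerebellum by 6 each.

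C57BL/6J mice (n = 3, 8.0 weeks old) were the controls of 4 lines. Rorb h1/h1 mice (n = 3, 8.0 weeks) are on C57BL/6J and carry a duplication upstream of Rorb that takes in the first exon of the Rorb1 transcript. Rorb h2/h2 (n = 4, 7.9 to 9.4 weeks) and Rorb h3/h3 (n = 4, 8.0 to 9.6 weeks) arose on B6(Cg)-Tyr c-2J/J, an albino line, and no causal mutation is known for either. Rorb h4/h4 mice (n = 4, 8.4 to 8.6 weeks) arose on B6.129S7-Il1r1 tm1/mx/J and carry a premature stop codon. Rorb h5/h5 mice (n = 3, 8.4 to 8.7 weeks) lack the start codon of Rorb1, are on DBA/1J and were compared with DBA/1J (n = 3, 8.4 to 8.9 weeks). Cortex, hippocampus and cerebellum came from 3 h5 and 3 DBA/1J mice of 7.0 weeks, which by their labelled ages and animal numbers were other mice. The study's methods describe dissecting the regions from a hemisphere of the sagittally cut h5 brains, so whether any mouse gave both kinds of sample is uncertain. The h2, h3 and h4 controls were C57BL/6J mice, not the lines on which those alleles arose, so the allele and the other differences between the lines cannot be told apart. The animal numbers in the labels run in separate series for h2, h3 and h4, whereas h1 shares a series with C57BL/6J. Because h1 to h4 were set against the same 3 control libraries of a tissue, their values stand side by side below and were not pooled or correlated with each other.

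Inhibitory neurons make GABA with the glutamate decarboxylases encoded by Gad1 and Gad2, and glycinergic neurons take up glycine through the transporter encoded by Slc6a5. Both transmitters are loaded into synaptic vesicles by the transporter encoded by Slc32a1, so this gene is shared by GABA and glycine neurons. Pax2, Lbx1, Gbx1 and Lhx1 encode homeodomain or paired-domain transcription factors of developing dorsal and intermediate cord interneurons, and Pvalb encodes parvalbumin, a calcium buffer of fast-spiking interneurons and also of cerebellar Purkinje cells and proprioceptive sensory neurons. RORB is an orphan nuclear receptor that binds DNA as a monomer at the sequence AGGTCA behind an A/T-rich stretch.

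The windows of 250 bases upstream of the annotated start sites (RefSeq, GRCm38.p6) were searched for AGGTCA and for its core GGTCA, which lies within AGGTCA, on both strands. There were 11 windows for 7 of the 9 genes. AGGTCA was in 0 of the 11 windows, and in 14.0% of all 32851 windows of this length. GGTCA was in 2 of the 11, those of Gad2 (2 matches) and Lhx1 (1 match, first base at -65 from the start site), and in 35.2% of all windows. No match says only that these letters are not in this window. The windows of Gad1 (chr2:70561879-70562128) and Gad2 (chr2:22622077-22622326) lie inside exons of longer annotated transcripts of those genes. The windows of Lhx1 (chr11:84525535-84525784, minus strand) and Pvalb (chr15:78206401-78206650, minus strand) lie outside annotated transcripts of their genes, and are shown because these genes passed the test in spinal cord of 1 mutant line each. Both are given 5′ to 3′ with GGTCA in capitals; G or C made up 64.8% of the Lhx1 window and 58.4% of the Pvalb window, against a median of 52.4%.
Lhx1: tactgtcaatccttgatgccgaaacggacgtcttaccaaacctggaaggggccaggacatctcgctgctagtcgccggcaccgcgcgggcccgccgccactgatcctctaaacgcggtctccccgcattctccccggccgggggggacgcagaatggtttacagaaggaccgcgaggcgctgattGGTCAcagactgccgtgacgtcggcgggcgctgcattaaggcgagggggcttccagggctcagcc
Pvalb: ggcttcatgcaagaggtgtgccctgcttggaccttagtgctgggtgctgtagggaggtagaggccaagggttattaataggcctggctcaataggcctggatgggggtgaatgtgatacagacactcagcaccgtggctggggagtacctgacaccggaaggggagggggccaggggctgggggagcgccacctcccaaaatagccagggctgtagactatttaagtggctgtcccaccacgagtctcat

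The libraries held 32889755 to 59120536 estimated counts (median 42391893). In spinal cord the 12 Hox genes used as position markers summed to 339.8 to 403 TPM (levels scaled for transcript length and library depth), against 0.49 to 25.8 in brain and at most 0.35 in the dissected regions. The 12 cerebellar markers summed to 5661 to 6086 TPM in cerebellum and to at most 331 TPM in cortex and hippocampus. In h5 spinal cord, replicate 3 stood apart: its 12 sensory ganglion and Schwann cell markers summed to 787 TPM, against 38.8 to 94.0 in the other 23 cord libraries, and its 10 meningeal fibroblast markers to 436 TPM. Without this library, as with it, 0 of the 9 members passed in h5 cord. All members were read from whole tissue, so fewer cells of a type and less RNA per cell cannot be told apart.

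Rorb itself (chr19:18930609-19111196) was measured first, as a check of the labels. In C57BL/6J spinal cord it was at 8.43, 8.22 and 7.92 TPM, and in h4 it fell by 78.4%, to 2.07, 1.80, 2.38 and 1.92 TPM (log2 fold change -2.21, SE 0.0908, adjusted p = 7.7e-09, edgeR). It was lower in h2 as well, at 5.04, 5.09, 5.24 and 4.87 TPM (-0.72, adjusted p = 9.6e-07), and in h1, at 6.31, 6.28 and 6.26 TPM (-0.28, adjusted p = 0.0339). The h1 call was lost in 5 of the 6 fits that left out 1 library, each but that without C57BL/6J replicate 3, with adjusted p up to 0.301. In h3, Rorb stood at 7.54 to 8.92 TPM (-0.02, adjusted p = 0.950). In h5 it was at 9.47 to 10.96 TPM, wholly above DBA/1J at 8.49 to 8.58, and missed the threshold (0.24, adjusted p = 0.376). The study, which used DESeq2, reported Rorb as differentially expressed in h5 brain and cord, with levels above DBA/1J.

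In spinal cord, Gad1 was lower in h2 and h4, Gad2 was lower in h2, Lhx1 was lower in h4 and Pvalb was lower in h3. By the count model the smallest of these changes was -7.71% and the greatest -24.5%. All other member comparisons in cord missed the threshold. The counts of members past an adjusted p of 0.05 in edgeR were 0 of 9 in h1, where 0.289% of all genes tested passed, 2 of 9 in h2 (2.09% of all genes), 1 of 9 in h3 (1.01%), 2 of 9 in h4 (1.75%) and 0 of 9 in h5 (0.00581%). At an unadjusted p under 0.05 the counts were 3, 5, 1, 3 and 1 in h1 to h5. Over all genes they were 1951 of 17309, 2723 of 17464, 2376 of 17512, 2433 of 17427 and 1532 of 17210. DESeq2 called 0, 4, 1, 3 and 0 members, and its totals over all genes are given with the processing below. Fold changes below 0 were found for 7, 7, 6, 8 and 6 of the 9 genes in h1 to h5, against 51.1%, 49.4%, 50.8%, 50.8% and 49.6% of all genes. The median log2 fold change of the members was -0.07 in h1, -0.12 in h2, -0.03 in h3, -0.14 in h4 and -0.03 in h5, and that of all genes lay between -0.0031 and 0.0018.

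**Figure D1:**
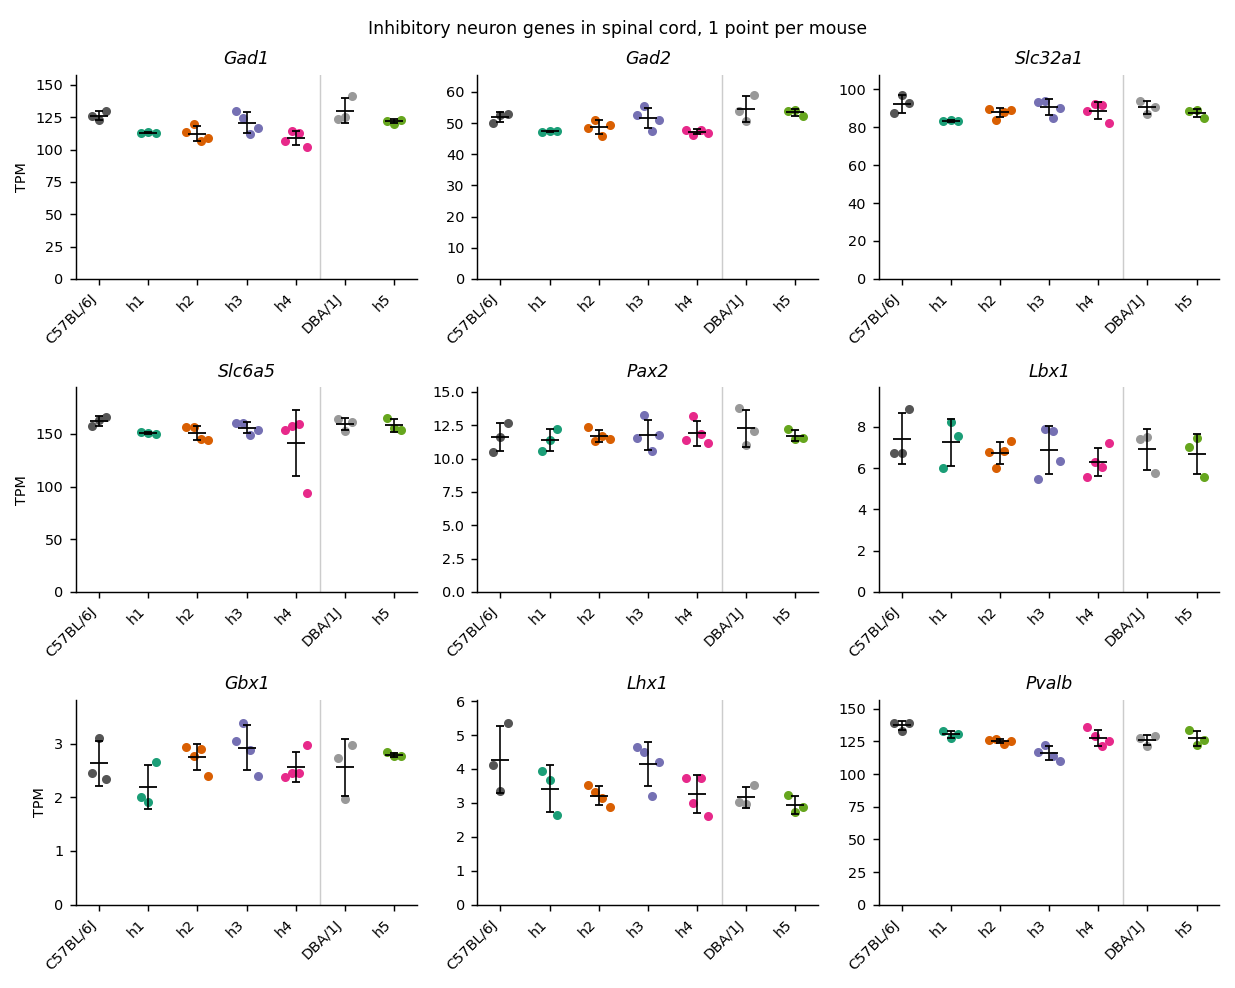
TPM of each of the 9 genes in spinal cord, 1 point per mouse, with the group mean and SD as bars; a grey line separates C57BL/6J and its 4 lines from DBA/1J and h5. Gad1 points of h1, h2 and h4 sit below the 3 C57BL/6J points, and Slc6a5 has 1 low point in h4, at 94.1 TPM.

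Gad1 (ENSMUSG00000070880, chr2:70561303-70602014) encodes the larger glutamate decarboxylase, which makes most of the GABA of the adult brain. In C57BL/6J cord it was at 126, 123 and 129.7 TPM. In h2 cord it was at 114, 119.8, 106 and 109 TPM, and in h4 cord at 107, 114, 113 and 102 TPM. None of these 8 mutant libraries reached the lowest control. Gad1 fell by 12.2% in h2 (log2 fold change -0.19, SE 0.0301, adjusted p = 0.00300) and by 12.6% in h4 (-0.19, SE 0.0339, adjusted p = 0.00922). In h1, all 3 libraries stood at 113 TPM and also lay below the controls, but the difference of -6.29% missed the threshold (-0.09, SE 0.0355, adjusted p = 0.312). In h3, with 130.1, 124, 112 and 117 TPM, the groups overlapped (-0.06, SE 0.0451, adjusted p = 0.582). In h5 the 3 libraries, at 122, 120.1 and 123 TPM, lay just below DBA/1J, at 124, 125 and 142 TPM (-0.11, SE 0.0381, adjusted p = 0.523).

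The Gad1 result in h2 held in 13 of 15 alternative fits, the 7 that each left out 1 library among them, with log2 fold changes from -0.21 to -0.17. It did not pass in limma on log2(TPM + 0.1) or log2(TPM + 1), where the adjusted p was 0.308 and 0.30. In h4 it held in 11 of 15. It missed the threshold without C57BL/6J replicate 1 (-0.17, adjusted p = 0.106), with the replicate number as a block (adjusted p = 0.0525), and in limma (adjusted p = 0.15 and 0.153).

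**Figure D2:**
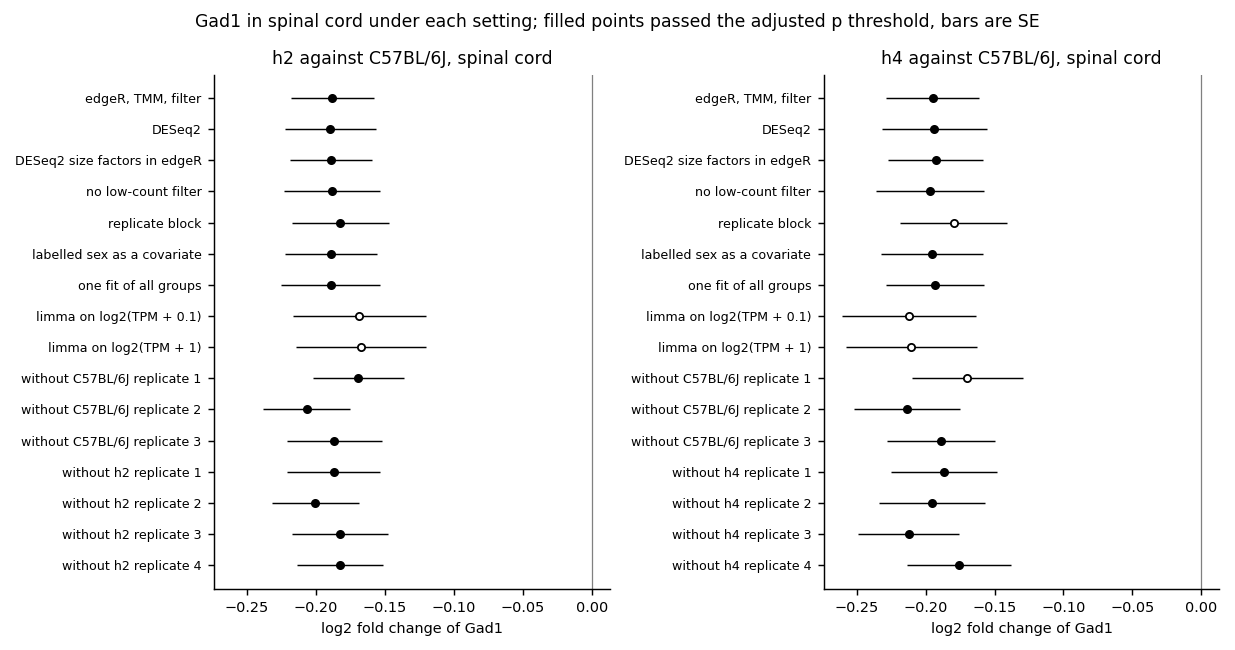
Log2 fold change of Gad1 in h2 (left) and h4 (right) spinal cord against C57BL/6J under the edgeR fit and 15 alternatives, with SE as bars; filled points passed the adjusted p threshold of 0.05. Every point lies below 0, between -0.21 and -0.17 in h2.

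Gad2 (ENSMUSG00000026787, chr2:22621015-22693877) encodes the smaller decarboxylase, found mostly at nerve terminals. It was at 50.05, 52.7 and 52.9 TPM in C57BL/6J cord and at 48.5, 51.1, 45.9 and 49.4 TPM in h2 cord. The ranges overlapped by 1 h2 library, and the difference of -7.71% was just past the threshold (-0.12, SE 0.0276, adjusted p = 0.0381). It passed in 4 of 15 alternatives. Of the 7 left-out fits it passed in that without h2 replicate 4, and the others gave an adjusted p of 0.0580 to 0.127. In h4 cord the libraries, at 48.0, 46.2, 47.9 and 46.9 TPM, all lay below the controls, with a difference of -9.13% (-0.14, SE 0.0336, adjusted p = 0.0538) that passed in 3 of 15 alternatives. In h1 all 3 libraries, at 47.1 to 47.6 TPM, were below the controls (-0.08, adjusted p = 0.375), while in h3 (0.00, adjusted p = 0.983) and h5 (-0.03, adjusted p = 0.785) the ranges overlapped with their controls.

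Slc32a1 (ENSMUSG00000037771, chr2:158607260-158615747), the vesicular transporter, was at 87.2, 96.9 and 92.5 TPM in C57BL/6J cord. It was at 82.9 to 83.9 TPM in h1, 83.9 to 89.6 in h2, 84.6 to 93.8 in h3 and 82.2 to 91.9 in h4. Its log2 fold changes were -0.07, -0.08, -0.01, -0.04 and, in h5 against DBA/1J, -0.06, with adjusted p from 0.345 to 0.972. The ratio of Gad1 to Slc32a1 TPM, given as a description, was 1.37 ± 0.0912 (SD, n = 3) in C57BL/6J, 1.28 ± 0.10 (n = 4) in h2 and 1.23 ± 0.0170 (n = 4) in h4. It was 1.36 in h1, 1.33 in h3, 1.44 in DBA/1J and 1.39 in h5.

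Slc6a5 (ENSMUSG00000039728, chr7:49906984-49963864), the glycine transporter, was the most abundant member in cord at 162 ± 4.52 TPM (SD, n = 3) in C57BL/6J. In h2 cord it was at 156, 157, 145 and 144 TPM, all below the controls at 158, 163 and 166 TPM, and the difference missed the threshold (-0.12, SE 0.0324, adjusted p = 0.0767, but 0.00146 in DESeq2). In h4 cord 3 libraries lay at 154, 158 and 159 TPM and replicate 4 at 94.1 TPM, so that the SE was 0.120 (-0.18, adjusted p = 0.550). Without that library the log2 fold change was -0.04 (adjusted p = 0.781). On the log2 scale of normalized counts, 17 of 11861 genes with a mean count of at least 200 were over 0.3 below all 23 other cord libraries in this library, and 0 above. Slc6a5 was among the 17, as were several genes of the Dnah and Cfap families. By the same measure h3 replicate 1 had 26 genes below and the other cord libraries 0 to 13. The part of this in the h4 result was not tested. In h1, h3 and h5 the log2 fold change of Slc6a5 was -0.03 in each, with adjusted p of 0.782 to 0.863.

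The transcription factor genes were low in adult cord and varied more between mice. Lhx1 (ENSMUSG00000018698, chr11:84517975-84525534) was at 4.13, 3.36 and 5.34 TPM in C57BL/6J cord and at 3.72, 3.01, 3.72 and 2.61 TPM in h4 cord. The TPM ranges overlapped, and by counts Lhx1 fell by 24.5% (-0.41, SE 0.0922, adjusted p = 0.0401). This call held in 7 of 15 alternatives. It was lost without C57BL/6J replicate 1 or 3 (adjusted p = 0.209 and 0.148), without h4 replicate 2, 3 or 4 (0.107, 0.0572 and 0.105) and with the replicate block (0.101). In h2 Lhx1 was at 2.87 to 3.54 TPM (-0.30, SE 0.0897, adjusted p = 0.0992) and in h1 at 2.65 to 3.95 TPM (-0.28, SE 0.101, adjusted p = 0.282). In h3 it was at 3.21 to 4.65 TPM (-0.06, adjusted p = 0.816), and in h5 at 2.72 to 3.24 TPM, against 2.97 to 3.53 in DBA/1J. Here the mean TPM was lower in h5 (2.94 against 3.17) while the log2 fold change from counts was above 0 (0.10, adjusted p = 0.772).

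Pax2 (ENSMUSG00000004231, chr19:44746601-44838269), a marker of inhibitory interneurons of the cord, lay between 10.5 and 13.8 TPM in all 24 cord libraries. Its log2 fold changes were 0.08, 0.04, 0.06, 0.05 and -0.04 in h1 to h5, with adjusted p of 0.727 to 0.880. Lbx1 (ENSMUSG00000025216, chr19:45232684-45236841), which marks dorsal interneuron classes, ranged from 5.47 to 8.84 TPM, with log2 fold changes of 0.05, -0.15, -0.09, -0.22 and -0.06 and adjusted p from 0.392 to 0.921. Gbx1 (ENSMUSG00000067724, chr5:24504426-24526848) ranged from 1.91 to 3.38 TPM, with -0.18, 0.05, 0.18, -0.01 and 0.11 and adjusted p from 0.620 to 0.979. For these 3 genes the groups overlapped in each of the 5 comparisons.

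Pvalb (ENSMUSG00000005716, chr15:78191112-78206400) was at 139, 133.21 and 139 TPM in C57BL/6J cord and at 117, 123, 114 and 109.8 TPM in h3 cord. No h3 library reached the controls, and Pvalb fell by 15.2% (-0.24, SE 0.0464, adjusted p = 0.0293). It passed in 6 of 15 alternatives. The call was lost without C57BL/6J replicate 1, 2 or 3 (adjusted p = 0.175, 0.0918 and 0.0926), without h3 replicate 2 or 4 (0.0697 and 0.0688), with labelled sex as a covariate (0.127) and with the replicate block (0.0749). In h2 the libraries, at 126, 127, 123 and 125 TPM, also lay below the controls (-0.15, SE 0.0387, adjusted p = 0.0603), and the difference passed in DESeq2 (adjusted p = 0.0277) and without h2 replicate 4 (0.0430). In h4, at 122 to 136 TPM, the ranges overlapped (-0.08, adjusted p = 0.508). In h1, at 128 to 132.95 TPM, they did not, although the fold change from counts was -0.0007 (adjusted p = 0.997). In h5, at 122 to 134 TPM, the range took in most of that of DBA/1J, 122 to 129 TPM (0.01, adjusted p = 0.959).

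Read by TPM ranges alone, 5 of 9 members did not overlap in h1 (Gad1, Gad2, Slc32a1, Slc6a5 and Pvalb), where 23.7% of all genes did not. The count was 3 in h2 (Gad1, Slc6a5 and Pvalb; 9.90% of all genes), 1 in h3 (Pvalb; 9.14%), 2 in h4 (Gad1 and Gad2; 11.1%) and 1 in h5 (Gad1; 10.3%), and every one of these was lower in the mutant. On the TPM scale the median log2 fold change over all genes was -0.0798 in h1, whereas the count model, which rescales each library, put it at -0.0031.

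**Figure D3:**
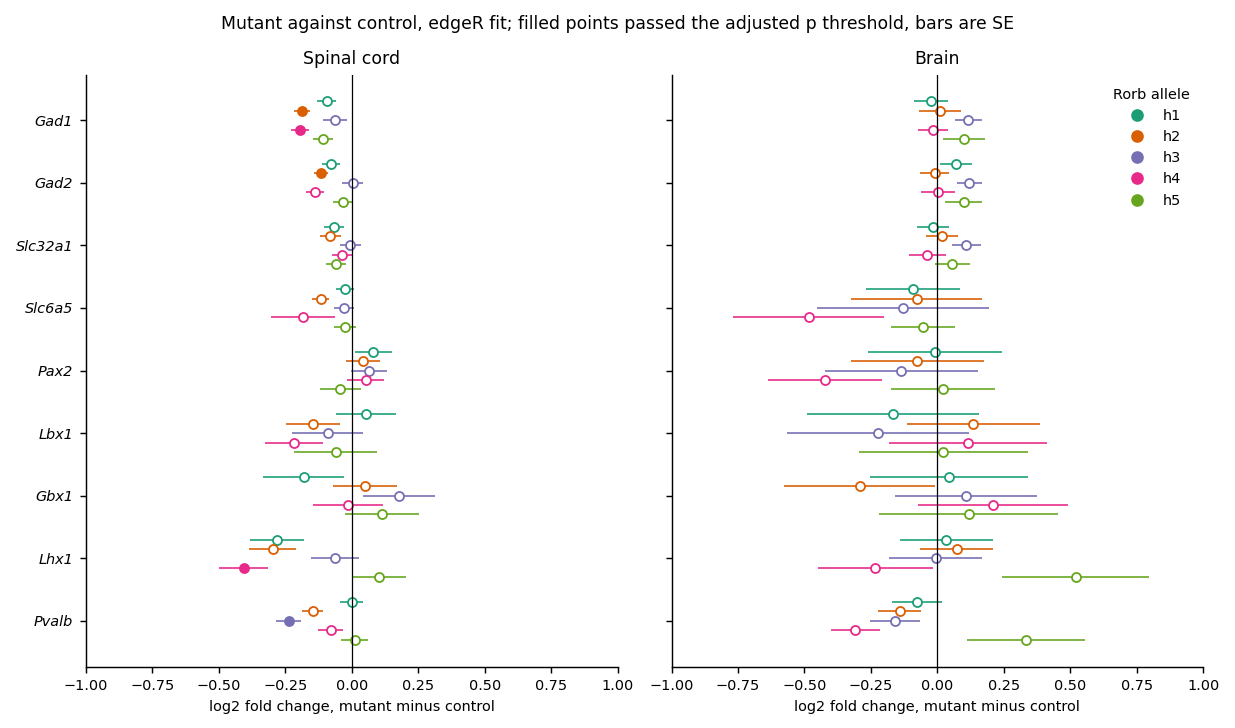
Log2 fold change of the 9 genes in spinal cord (left) and brain (right), 1 color per Rorb allele, mutant minus control, with SE as bars; filled points passed the adjusted p threshold. The 5 filled points, all in cord, are Gad1 in h2 and h4, Gad2 in h2, Lhx1 in h4 and Pvalb in h3, and the brain SEs of Slc6a5, Pax2, Lbx1, Gbx1 and Lhx1 are wide.

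Other genes of inhibitory transmission were read from lists chosen by function. Of 12 genes for transmitter turnover and transport, 11 or 12 were tested in cord and 1, 2 and 1 were lower in h2, h3 and h4, with 0 higher. Glul, the glutamine synthetase of astrocytes, fell from 1195 ± 24.6 TPM (SD, n = 3) in C57BL/6J to 1027 ± 52.3 in h2 (log2 fold change -0.23, adjusted p = 6.6e-04), 991 ± 46.0 in h3 (-0.25, adjusted p = 0.00888) and 1004 ± 58.6 in h4 (-0.23, adjusted p = 0.0245). The h2 call held without each library in turn, whereas the h3 call was lost without C57BL/6J replicate 1 (adjusted p = 0.0645) and the h4 call in 4 of 7 such fits (adjusted p up to 0.138). Slc12a2, a chloride importer, was lower in h3 (-0.23, adjusted p = 0.0159) and lost the call in 4 of 7 such fits. Of 20 GABA receptor subunits, 17 were tested in cord. Gabra2 fell from 35.3 ± 2.96 TPM to 25.3 ± 2.25 in h4 (-0.46, adjusted p = 6.2e-04, held without each library) and to 30.1 ± 1.75 in h3 (-0.19, adjusted p = 0.0369, held in 1 of 7 such fits).

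Of the 11 glycine receptor and inhibitory postsynapse genes, the 19 and 16 transcription factors of the hindbrain and cord and of the forebrain inhibitory lineages, and the 24 interneuron peptides and calcium-binding proteins, 0 passed in cord in any of the 5 lines with edgeR. At an unadjusted p under 0.05 there were 0 to 6 genes per list and line, and DESeq2 called 0 or 1. The median log2 fold changes of these lists ranged from -0.13 to 0.11 in cord. The list of excitatory neuron markers (20 genes) and that of motor neuron markers (10) also had 0 calls in edgeR and in DESeq2, with 0 to 4 genes at an unadjusted p under 0.05. The excitatory markers summed to 223 to 230.1 TPM in C57BL/6J cord, and to 213 to 214 TPM in h4 and 205 to 214 TPM in h1, both wholly below the controls. Their sums in h2 (219 to 236 TPM) and h3 (205 to 233 TPM) overlapped with the controls, as did those of the motor neuron markers in h1 to h4 (190.3 to 248 TPM, against 196 to 225). In h5 the motor neuron sums, at 212.5 to 230 TPM, lay below DBA/1J, at 232 to 235 TPM, while the excitatory sums overlapped. Of 10 pan-neuronal markers, edgeR called 2 in h2 and 1 in h4, all lower, and DESeq2 called 4 and 2. Elavl4 was lower in h2 (-0.24, adjusted p = 0.0046) and held without each library in turn. Syt1 was lower in h2 (-0.13, adjusted p = 0.0408), a call lost in 6 of 7 such fits (adjusted p up to 0.167), and in h4 (-0.20, adjusted p = 0.00922), lost without C57BL/6J replicate 1 (adjusted p = 0.0794). The pan-neuronal sums were 5405 to 5720 TPM in C57BL/6J, 5213 to 5446 in h2 and 5177 to 5437 in h4, which overlapped with the controls, and 5027 to 5257 in h1, below them. Among single genes, TPM ranges did not overlap for 23.7% of all genes in h1, 9.90% in h2, 9.14% in h3, 11.1% in h4 and 10.3% in h5. In h1 the TPM of all genes was shifted downward, as given above, so sums below the controls there are not particular to neuronal markers. None of these excitatory or pan-neuronal markers was at 0 throughout a group, and their part in the Gad1 results was not tested. Beside the Pvalb result in h3 cord, 3 of 10 microglia markers were higher and 1 of 10 oligodendrocyte markers lower. The microglia markers summed to 293 to 311 TPM in C57BL/6J and 321 to 365 TPM in h3, and the oligodendrocyte markers to 22062 to 23966 and 17284 to 22604 TPM, with 0 of 10 at 0 in each list. Their part in the Pvalb result was not tested. In h2 cord, where Gad1 and Gad2 were lower, the microglia markers summed to 320 to 337 TPM, also above C57BL/6J. In h4 cord these sums, at 307.5 to 328 TPM, overlapped with the controls. The part of the microglia markers in the Gad1 and Gad2 results was not tested.

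In brain, none of the 9 genes passed in any line with edgeR. The share of all genes called was 0% in h1, 0.136% in h2, 0.164% in h3, 0.703% in h4 and 0% in h5. At an unadjusted p under 0.05 the member counts were 0, 0, 2, 1 and 0, and DESeq2 called 0 members in h1, h2, h3 and h5 and 1, Pvalb, in h4. Over all genes, 745 of 17603, 1311 of 17594, 1833 of 17688, 2349 of 17789 and 1003 of 17299 had an unadjusted p under 0.05 in h1 to h5. DESeq2 called 17 of all genes in h1 and 64 in h5, and its totals for the other lines are given with the processing below. Gad1 in brain was at 257, 294 and 279.9 TPM in C57BL/6J and at 268, 273, 272 and 245 TPM in h4, so the groups overlapped (-0.02, SE 0.0552, adjusted p = 0.933). In h3 brain, Gad1 (0.12, adjusted p = 0.471) and Gad2 (0.12, adjusted p = 0.423) had fold changes above 0. In h5 brain the 3 Gad1 libraries, at 299, 305 and 339 TPM, were above DBA/1J, at 246, 298 and 294 TPM (0.10, SE 0.0798, adjusted p = 0.933).

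Pvalb was the member nearest the threshold in brain. It stood at 222, 214 and 187 TPM in C57BL/6J and at 196, 172, 137 and 145 TPM in h4, a difference of -19.3% (-0.31, SE 0.0927, adjusted p = 0.176). It passed in DESeq2 (adjusted p = 0.0378), with no filter on low counts (0.0299), with the replicate block (0.0217) and without h4 replicate 1 (0.0396). The 12 cerebellar markers summed to 888 to 1194 TPM in C57BL/6J brain and to 611 to 1027 TPM in h4 brain, none of the 12 was at 0, and their part in this result was not tested. In DBA/1J brain, Pvalb was at 96.2 TPM in replicate 1 and at 204 and 202 TPM in the others, while the cerebellar sum was 231 TPM in that library and 880.1 and 881 TPM in the others.

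Over the 24 brain libraries, after group means were removed on the log2 scale, the levels of several members followed marker sums. These correlations are descriptions over libraries that share tissue blocks, depth and normalization. Pearson's r was 0.93 between Slc6a5 and the Hox sum, 0.91 between Pax2 and the Hox sum, 0.84 between Lbx1 and the Hox sum, 0.93 between Pvalb and the cerebellar sum and 0.88 between Lhx1 and the cerebellar sum. Slc6a5 also had an r of 0.94 with the summed oligodendrocyte markers. In brain the pair Lhx1 and Pvalb had an r of 0.89 and Slc6a5 and Pax2 one of 0.85, and the median over the 36 pairs of members was 0.20. In cord the median was 0.03, and the highest was 0.54, for Gad1 and Gad2. Over the 24 cord libraries r was 0.72 between Pax2 and the Hox sum, and Gad2 and Gad1 had an r of 0.59 and 0.45 with the pan-neuronal sum and Pvalb one of -0.44 with the microglia sum. The Hox sum of a brain library lay between 0.49 and 25.8 TPM, in h3 between 0.49 and 21.0, with 3 or 4 of the 12 genes at 0 throughout a group. Slc6a5 in h3 brain ranged from 5.43 to 20.5 TPM and in h4 brain from 5.21 to 17.6 TPM, against 12.5 to 18.6 in C57BL/6J (h4: -0.48, SE 0.285, adjusted p = 0.49). Pax2 in h4 brain (-0.42, SE 0.215, adjusted p = 0.424) and Lhx1 in h5 brain (0.52, SE 0.275, adjusted p = 0.904) had SEs of the same order. Lhx1 was at 2.02, 6.48 and 6.45 TPM in DBA/1J brain and at 5.46, 8.38 and 6.65 TPM in h5 brain. Without DBA/1J replicate 1, the library with the low cerebellar sum, its log2 fold change was 0.20.

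**Figure D4:**
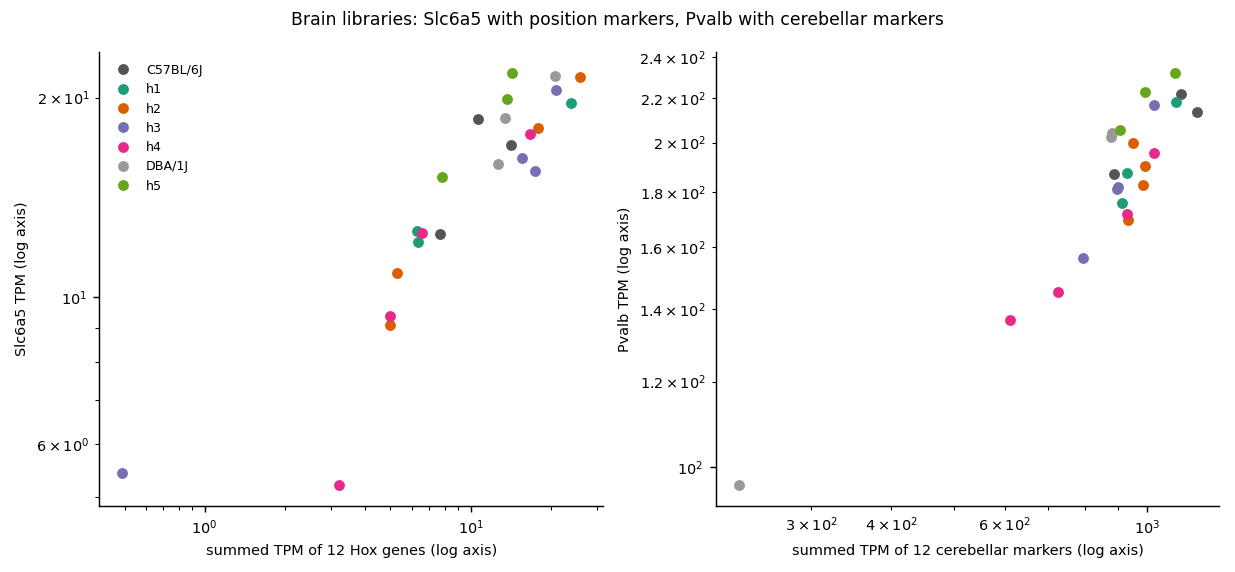
The 24 brain libraries, colored by group, on log axes: Slc6a5 TPM against the summed TPM of 12 Hox genes (left) and Pvalb TPM against the summed TPM of 12 cerebellar markers (right). Slc6a5, from 5.21 to 21.8 TPM, is higher where the Hox sum is higher, and the lowest Pvalb point, 96.2 TPM, is the DBA/1J library with the lowest cerebellar sum.

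Whether the mutant effect differed between cord and brain was tested as an interaction. Cord and brain came from the same mice, but the main fit had no term for the mouse, which was a block only in an alternative. None of the 9 members passed in any line with edgeR, and the share of all genes called was 0% in h1, 0% in h2, 0% in h3, 0.00540% in h4 and 0% in h5. At an unadjusted p under 0.05 there were 0, 1, 1, 2 and 0 members, and 689, 1014, 918, 1690 and 739 of the 18190 to 18513 genes tested per line. DESeq2 called 0 of all genes in h1, 5 in h2, 5 in h3, 83 in h4 and 2 in h5. For Gad1 the cord effect minus the brain effect was -0.06 in h1, -0.20 in h2 (SE 0.0917, adjusted p = 0.897), -0.17 in h3 (SE 0.0689), -0.17 in h4 (SE 0.0665, adjusted p = 0.444) and -0.20 in h5 (SE 0.0935). In this fit without a term for the mouse, the fall of Gad1 in cord was not shown to differ from its change in brain. Among the listed genes in brain, Glul was lower in h4 (-0.39, adjusted p = 0.0175, lost without C57BL/6J replicate 1 at 0.0565), the GABA transporter gene Slc6a13 was higher in h2 (0.63, adjusted p = 0.00978, lost without C57BL/6J replicate 1 or 2, adjusted p up to 0.0832), and the peptide gene Crh was lower in h4 (-0.91, adjusted p = 0.0398, held in 1 of 7 left-out fits).

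In the dissected regions of h5 mice, 0 of 5 members tested in cortex passed (0% of all genes), 0 of 6 in hippocampus (0.0118%) and 0 of 8 in cerebellum (0.0120%) with edgeR. Unadjusted p under 0.05 was reached by 1, 1 and 2 members, and by 1106 of 17220, 715 of 16961 and 937 of 16669 of all genes. In cortex DESeq2 called 59 of all genes. In each region, h5 replicate 3 (labelled F) did not match its labelled sex by Xist and Ddx3y, and without it 0 members passed as well. The filter on low counts removed Slc6a5, Pax2, Lbx1 and Lhx1 in cortex, Slc6a5, Lbx1 and Gbx1 in hippocampus and Gbx1 in cerebellum. In cortex, Pvalb was at 113, 98.2 and 72.2 TPM in DBA/1J and at 63.6, 65.3 and 74.6 TPM in h5 (-0.57, SE 0.169, adjusted p = 0.753). Gad2 was at 52.5, 66.7 and 111 TPM in DBA/1J and at 109, 115 and 88.3 TPM in h5 (0.38, SE 0.217, adjusted p = 0.771). DBA/1J replicate 3 lay on the side of the h5 libraries for both genes. Without it Gad2 (0.70, adjusted p = 0.0295), Slc32a1 (0.43, adjusted p = 0.0403) and Pvalb (-0.75, adjusted p = 0.0184) passed. Leaving out a control on the h5 side widens the Gad2 and Pvalb differences by itself, so these passes are no separate support. The 12 striatal markers summed to 250, 689.8 and 1218 TPM in DBA/1J cortex, in replicate order, and to 1243 to 1314 TPM in h5 cortex. None of the 12 was at 0, and their part in these values was not tested.

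In cerebellum, Lbx1 was at 3.74, 3.74 and 3.91 TPM in DBA/1J and at 2.69, 2.92 and 2.59 TPM in h5, with no overlap, a difference that missed the threshold (-0.49, SE 0.133, adjusted p = 0.689). Slc6a5 there stood at 11.6 to 13.2 and 13.2 to 14.6 TPM (0.18, SE 0.0717, adjusted p = 0.857). Gad1, Gad2, Slc32a1 and Pvalb had log2 fold changes of 0.03, 0.02, 0.01 and 0.03 in cerebellum. In hippocampus, Pvalb was at 53.8, 48.7 and 53.7 TPM in DBA/1J and at 43.3, 45.8 and 48.9 TPM in h5 (-0.23, SE 0.0813, adjusted p = 0.997).

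Between the control strains, 2 of 9 members differed in cord, where 21.3% of all genes did. Lhx1 was lower in DBA/1J, at 3.02, 2.97 and 3.53 TPM against 4.13, 3.36 and 5.34 TPM in C57BL/6J, with 1 library of each overlapping (-0.56, SE 0.103, adjusted p = 0.00158). It passed in all 11 alternatives. Pvalb, with a difference of -9.38%, was at 128, 122 and 129 TPM (-0.14, SE 0.0470, adjusted p = 0.0481), and passed in 1 of 11 alternatives. Leaving out any 1 of the 6 libraries ended the Pvalb call, with adjusted p of 0.0659 to 0.168. In brain 0 of 9 passed with edgeR, against 11.2% of all genes. There 2 members, Gad2 (0.17, adjusted p = 0.103) and Lhx1 (-0.73, adjusted p = 0.174), had an unadjusted p under 0.05, and DESeq2 called 2199 of all genes.

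The levels of the members were also compared between tissues of the control mice, in fits without a term for the mouse. In C57BL/6J mice all 9 members differed between cord and brain, where 56.9% of all genes did. Slc6a5 was 10.3-fold higher in cord (log2 fold change 3.36, SE 0.120), and Pax2 (2.73), Lbx1 (2.73), Gbx1 (2.42) and Slc32a1 (0.65) were also higher there. Gad1 (-1.18), Gad2 (-0.85), Lhx1 (-0.63) and Pvalb (-0.56) were lower in cord. The Lhx1 call was lost in a single fit of all groups (adjusted p = 0.0531). In DBA/1J 7 of 9 differed, against 50.8% of all genes, in the same directions, with Slc6a5 at 3.06. The exceptions were Lhx1 (-0.47, adjusted p = 0.212) and Pvalb (-0.45, adjusted p = 0.128), which passed without DBA/1J brain replicate 1, the library with the low cerebellar sum (-0.79, adjusted p = 3.5e-04, and -0.72, adjusted p = 8.6e-07). Per length, Slc6a5 was the highest member in cord and Gad1 the highest in brain, cortex and hippocampus, while Pvalb was the highest in cerebellum.

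**Figure D5:**
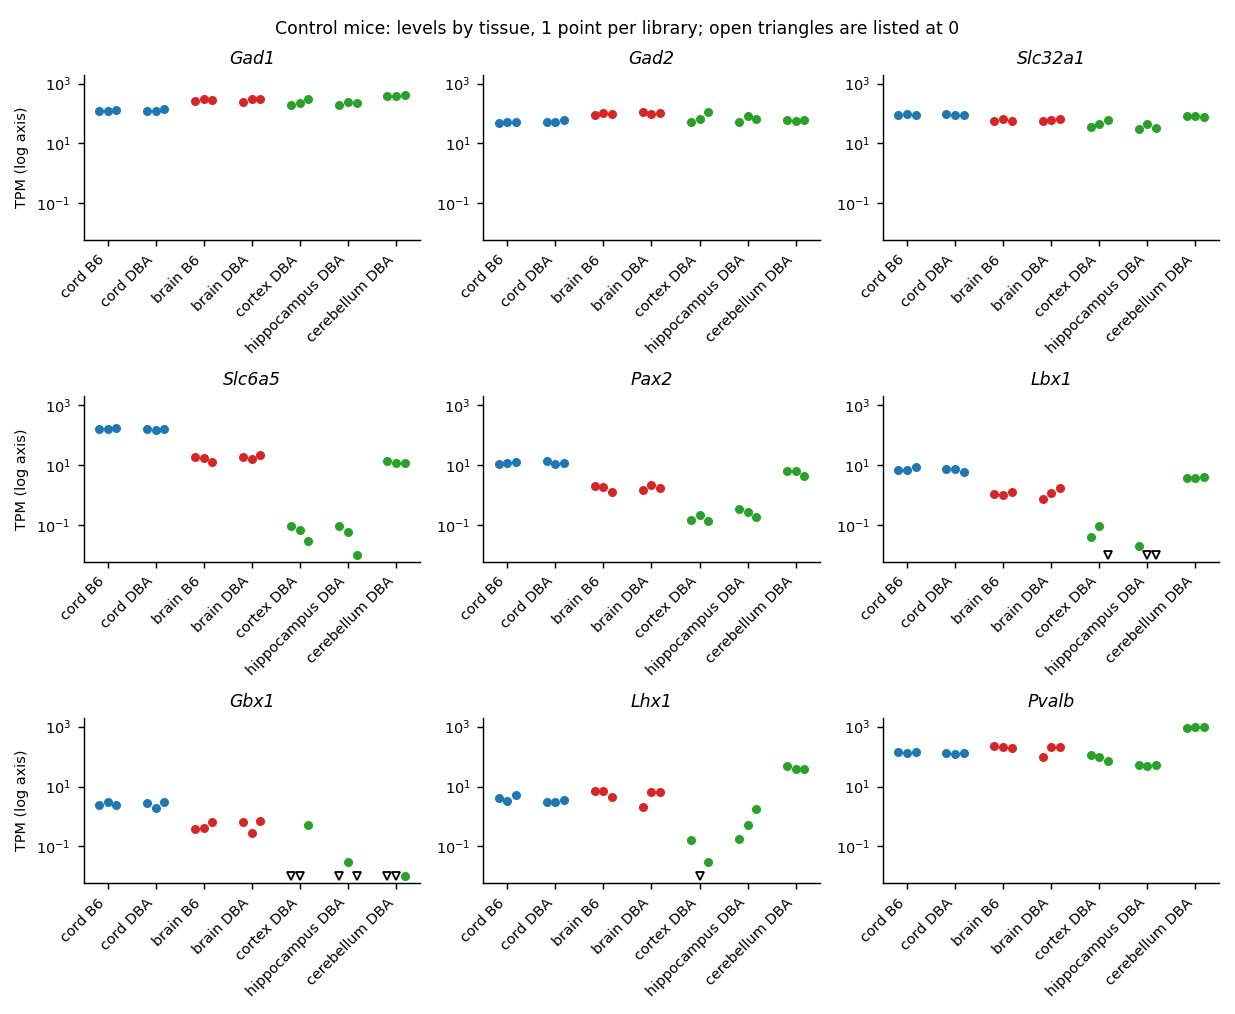
TPM (log axis) of the 9 genes in the control mice, 1 point per library, for spinal cord and brain of C57BL/6J and DBA/1J and the 3 dissected regions of DBA/1J; open triangles mark libraries listed at 0. Slc6a5 spans from 0.0533 TPM on average in hippocampus to 162 TPM in C57BL/6J cord, and Pvalb reaches 939 TPM in cerebellum.

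Ordered by mean TPM in control mice, Gad1 was highest in cerebellum (396 ± 4.94 TPM, SD, n = 3), followed by brain (279 in DBA/1J and 277 in C57BL/6J), cortex (244), hippocampus (219) and cord (130.2 and 126). Brain, cortex and hippocampus, neighbours in this order, overlapped, whereas cerebellum and cord stood clear. Slc32a1 had another order, with cord at 92.2 and 90.4 TPM, cerebellum at 79.5, brain at 60.5 and 60.0, cortex at 47.0 and hippocampus at 35.9. Cord and cerebellum stood clear of each other and cerebellum of brain, and the rest overlapped with their neighbours. The ratio of Gad1 to Slc32a1 TPM was 1.37 in C57BL/6J cord and 4.63 in C57BL/6J brain, and that of Slc6a5 to Slc32a1 was 1.76 and 0.267. Gad2 was highest in brain (105 and 95.6 TPM) and lowest in cord (54.5 and 51.9), with each neighbour in the order overlapping.

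Slc6a5 was at 162 and 159.5 TPM in cord, 18.7 and 16.0 in brain and 12.3 in cerebellum, and at 0.0633 and 0.0533 TPM in cortex and hippocampus. Pax2 was at 12.3 and 11.6 TPM in cord, 5.61 in cerebellum and 1.74 and 1.72 in brain, and at 0.267 and 0.170 TPM in hippocampus and cortex. Lbx1 was at 7.43 and 6.90 TPM in cord, 3.80 in cerebellum and 1.21 and 1.13 in brain. Gbx1 was at 2.63 and 2.56 TPM in cord and 0.533 and 0.487 in brain, and in cerebellum was listed at 0 in 2 of 3 libraries. Lhx1 was highest in cerebellum, at 41.3 ± 4.88 TPM, followed by brain (6.17 and 4.98), cord (4.28 and 3.17) and hippocampus (0.823). Pvalb was at 939 ± 21.3 TPM in cerebellum, 207 and 168 in brain, 137 and 126 in cord, 94.5 in cortex and 52.1 in hippocampus.

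Among the dissected regions of DBA/1J, Gad1, Gad2, Slc32a1 and Pvalb differed between cerebellum and cortex, where 58.1% of all genes did. Slc6a5, Pax2, Lbx1 and Lhx1 passed the count filter only through cerebellum, where they were high, so their calls are not counted, and Gbx1 was not tested. Pvalb was 3.08 log2 units higher in cerebellum, Slc32a1 0.52 and Gad1 0.45, while Gad2 was lower (-0.62, adjusted p = 0.0272). The Gad2 call was lost without any 1 of the 3 cerebellum libraries (adjusted p = 0.0528 to 0.0989) and in DESeq2 (0.0865). Those 4 genes and Pax2 differed between cerebellum and hippocampus (64.0% of all genes), while Slc6a5, Lbx1 and Lhx1 passed the filter only through cerebellum and Gbx1 was not tested. Pvalb was 4.01, Slc32a1 0.99 and Gad1 0.69 log2 units higher in cerebellum than in hippocampus. Gad2 was lower there by the same test (-0.37, adjusted p = 0.0342) and lost the call without hippocampus replicate 2 or 3 (0.125 and 0.0538), without cerebellum replicate 1 or 2 (0.0968 and 0.129), in DESeq2 (0.139) and in a single fit of all groups (0.0965). Between hippocampus and cortex, 1 of 5 members tested differed (20.6% of all genes), Pvalb, which was lower in hippocampus (-0.91, adjusted p = 0.00567).

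The genes most like each member over the 24 cord libraries were sought among 15032 genes with a mean of at least 1 TPM, by Pearson's r of log2 values after group means were removed. For Gad1 they were Stam (r = 0.87), Rxfp1 (0.84) and Bmpr1a (0.83), and for Gad2 Tcea1, Dhx36 and Pja2 (0.90 each). For Slc32a1 they were Ywhag (0.78), Cend1 (0.77) and Jmjd7 (0.75). For Slc6a5 they were Cfap65 (0.86), Pkd1l2 (0.84) and Cfap43 (0.84), and without h4 replicate 4 these fell to 0.24, 0.026 and 0.41. Pax2 was most like Dctn1 (0.83), Lbx1 like Zfp771 (0.85), Gbx1 like Pcdhb11 (0.85), Lhx1 like Idh3b (0.85) and Pvalb like Tll2 (0.77). These values describe 24 libraries that share depth and normalization within a fit.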

How the data were processed

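Polyadenylated RNA of 66 tissue samples was sequenced, and the authors deposited 1 gene table per library. Per the submitters' processing notes and the study's methods, reads were trimmed (Trim Galore), checked (FastQC), aligned with STAR to GRCm38 (mm10) and quantified with RSEM, which shares reads between similar genes. Each table gives expected counts, as the authors' RSEM run estimated them (5.07% of values were not whole), and TPM, which the authors' files scale for length and depth. Symbols came from GENCODE vM39 for 41403 of 45706 identifiers, and coordinates and promoter sequences from RefSeq GRCm38.p6. Identifiers without a symbol held 1.52 to 12.7% of counts.

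Expected counts were rounded and tested with edgeR 4.0.16 (R 4.3.3): TMM normalization, filterByExpr (minimum count 10) and the quasi-likelihood test, with Benjamini-Hochberg adjustment over all genes tested and a threshold of 0.05. Each mutant was fitted with its control strain only, and the cord-minus-brain difference as an interaction. Tests were two-sided, and fitting was tested on simulated data. The labels give 30 mice. Group membership and ages came from the labels. No 2 libraries of the 78 replicate pairs were identical. P-values of the mutant and strain comparisons measure spread between mice. Tissue comparisons and interactions used libraries of the same mice without a term for the mouse, so their p-values treat those libraries as independent.

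Alternatives were DESeq2 1.42.0, its size factors within edgeR, no count filter, a term for labelled sex (which differed from Xist and Ddx3y levels, read at 1 TPM, in 0 of 24 cord and 0 of 24 brain libraries and in 1 of 6 of each dissected region), a block for the replicate number, a block for the animal number series (h5 comparisons), a single fit of all groups, limma 3.58.1 on log2(TPM + 0.1) and log2(TPM + 1), and leaving out each library. Replicate numbers do not name shared litters or days. Residuals of same-numbered samples correlated from -0.32 to 0.25 in 15 mutant and strain comparisons, and all pairs of a comparison exceeded 0.1 in 1 (h1 brain), where the block changed no member call. In tissue comparisons same-numbered libraries came from the same mice. Python 3.11.15, pandas 2.3.3 and numpy 2.4.6 made summaries.

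Genes named are the 9 members, Rorb, up to 4 called genes of a list with the smallest adjusted p, and the 3 genes most like each member in cord (r of residuals). The library with low Slc6a5 was described after its values were seen. The members and lists were chosen with earlier results of these data known.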

Additional observations from a re-analysis of the deposited data

Results flagged for a closer look

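In the 54 sets of 4 libraries (each of the 9 members in h2, h3 and h4 cord and brain), the gap between the extreme library and its neighbour was compared with the whole range, and the sets above Dixon's critical value are given here. Chance gives about 1 in 20. Slc6a5 in h4 spinal cord was lowest in replicate 4, at 94.1 TPM (ratio 0.913). In the same library Gbx1 was highest, at 2.98 TPM (0.869). In h4 brain, Gad1 was lowest in replicate 4, at 245 TPM (0.838), and Slc32a1 was highest in replicate 1, at 64.3 TPM (0.919).

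In h5 mice every Gad1 library lay below DBA/1J in cord and above it in brain, and the difference of the effects was -0.20 on the log2 scale. The interaction test did not pass (edgeR, adjusted p = 0.9999).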

How the results depend on the processing

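The number of members called was recomputed 347 times over 25 comparisons, and 298 stayed within 1.5 times the number reported. In h2 cord (2 called) DESeq2 gave 4, the replicate block, labelled sex and a single fit of all groups 1 each, and limma 0 with either pseudocount; leaving out libraries gave 1 to 3 (3 without h2 replicate 4, where Pvalb also passed). In h3 cord (1) the replicate block, labelled sex and both limma fits gave 0, and left-out fits 0 to 1. In h4 cord (2) the replicate block and both limma fits gave 0, and left-out fits 0 to 2. In h4 brain (0) DESeq2, no filter and the replicate block gave 1, and left-out fits 0 to 1. In h5 cortex (0) left-out fits gave 0 to 3. Between strains in cord (2) DESeq2, its size factors, no filter, the replicate block and every left-out fit gave 1. Between hippocampus and cortex (1) DESeq2 and no filter gave 2, a single fit 3 and left-out fits 1 to 3. The cause of these moves was not tested. Of 2961 recomputed fold changes of members, 2861 kept their side of the threshold (called) or stayed within the spread of replicates (not called), 27 uncalled values moved further, 55 lost the call, 18 gained it and 0 called values reversed. Beyond h2, h3, h4 and strain in cord and h4 brain, the replicate block changed no call of a member.

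Counts over all genes moved by more than 1.5 times in many fits. In cord, h1 (50) had 142 with DESeq2, 477 without a filter, 89 with the replicate block, 98 with sex, 2 in a single fit and 1 and 0 in limma. For h2 (365) these were 554, 783, 174 in a single fit and 19 and 18 in limma, and for h3 (176) 430, 380, 73 with sex, 475 in a single fit and 11 and 12 in limma. For h4 (305) they were 570, 686 and 36 and 23, and for h5 (1) 91, 25, 10 with the block, 0 with sex, with the series and in limma, and 62 in a single fit. In brain, h1 (0) had 17, 37, 3 with the block, and 1 with sex and in a single fit; h2 (24) 87, 80, 3 with the block, 5 with sex and 4 in limma; h3 (29) 196, 86, 2 with the block, 64 in a single fit and 4 in limma. For h4 (125) the numbers were 451, 359, 244 with the block and 15 and 16 in limma, and for h5 (0) 64, 22 and 45 in a single fit. Cortex (0) had 59, 20, 2 with sex and 20 with the series, hippocampus (2) 43, 16, 0 with the block and 7 with the series, and cerebellum (2) 44, 68, 15 with the block, 1 with sex and 0 with the series. Strains in brain (1952) had 1293 with the block and 3017 in a single fit, hippocampus against cortex (3537) 5319 in a single fit. The interactions had 33 without a filter in h1, 5 with DESeq2 and 7 without a filter in h2, 5 and 5 in h3, 83, 100 and 2 with the animal as a block in h4 (1), and 2 with DESeq2 in h5. With 3 or 4 mice per group, Gad1 differences of -0.09 and -0.11 in cord missed the threshold and -0.19 passed, with SEs of 0.0301 to 0.0451, while those of Lhx1 were 0.0891 to 0.103.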

Other observations

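Single markers of glia and vessels also differed in spinal cord (edgeR, adjusted over all genes tested), where 2.09%, 1.01% and 1.75% of all genes passed in h2, h3 and h4. Their summed lists overlapped with or met the controls. Astrocyte sums were 4383 to 4599 TPM in C57BL/6J and 4321 to 4670, 3820 to 4392 and 4358 to 4745 in h2, h3 and h4. Endothelial sums were 312 to 335 TPM against 288 to 329, 274 to 345 and 278 to 312. Oligodendrocyte sums were 22062 to 23966 TPM against 21349 to 24502 in h2 and 21124 to 24178 in h4. Gjb6, a connexin gene of astrocytes, was lower in h2 (log2 fold change -0.35, adjusted p = 6.4e-04, held without each library in turn), h3 (-0.33, adjusted p = 0.0126, lost in 2 of 7 such fits, without C57BL/6J replicate 1 or 3, adjusted p up to 0.0936) and h4 (-0.30, adjusted p = 0.0221, lost in 3 of 7, without C57BL/6J replicate 1 or 3 or h4 replicate 3, adjusted p up to 0.127). Slc1a3, a glutamate transporter gene of astrocytes, was higher in h4 (0.27, adjusted p = 0.00463, held in all 7 such fits). Ly6c1, an endothelial marker, was lower in h4 (-0.39, adjusted p = 0.00399, held in all 7), h2 (-0.28, adjusted p = 0.0229, lost in 4 of 7, adjusted p up to 0.187) and h3 (-0.31, adjusted p = 0.0472, lost in 5 of 7, adjusted p up to 0.246). Opalin, a gene of myelinating oligodendrocytes, was higher in h2 (0.34, adjusted p = 0.0169, lost in 3 of 7, adjusted p up to 0.115) and h4 (0.43, adjusted p = 0.0260, lost in 3 of 7, adjusted p up to 0.130). These lines share their 3 control libraries. Calca, the gene of the sensory peptide CGRP, was lower in h2 (-0.47, adjusted p = 2.8e-04) and held in all 15 alternatives.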
